A study of Arabidopsis thaliana with 12 samples.

Results

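Among the probes of this Arabidopsis thaliana array that list a single gene, 37 were kept for a value at least 0.25 higher, on the log2 scale, in the psae2 mutant than in the wild type in each of 3 pairs of samples, with 6 genes left out by name. The table held 3439 probes, of which 692 listed 1 gene, 870 listed several and 1877 listed none. The array measured total RNA of 6 psae2 samples, a mutant in ecotype Columbia 0 whose photosystem I is without the protein PSI-E2 per the labels, and of 6 WT samples of the same ecotype. Tissue, age, growth conditions, the kind of lesion in the mutant, and whether the samples came from separate plants are not given in the labels. Neither PSAE2, the mutated gene, nor its paralog PSAE1 had a single-gene probe, so the genotypes were not checked by a probe of either gene alone. Probes that list several genes were not used for such a check.

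The 37 were chosen by their values. Each sample carries a number from 1 to 6, and within a genotype the numbers 1 and 2, 3 and 4, and 5 and 6 resembled each other more than they did other numbers, with correlations of 0.24 to 0.71 between their deviations from the genotype mean across probes, against -0.68 to -0.12. Deviations from a mean sum to 0, which lowers the second range, and whether these numbers are repeats is not given in the labels. Log2 intensities were therefore averaged over these pairs of numbers, and a probe was kept where psae2 minus WT was at least 0.25, a 1.19-fold difference, in all 3 pairs. The same size was met by 41 of the 692 single-gene probes, or 5.92%, and by 6.69% of all probes. In the opposite direction it was met by 5.78% of the single-gene probes and 6.40% of all probes. Of the 6 names left out, AT1G22700, AT1G78620, AT5G39410, Cpn60beta4, PIFI and PRK, 4 probes met the size. Since the differences between the genotypes chose the 37 probes, they are given as a description and without a test.

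Photosystem I takes electrons from plastocyanin on the lumen side of the thylakoid membrane and hands them to ferredoxin on the stromal side. PSI-E is a small extrinsic subunit of the stromal side that helps to dock ferredoxin, and in Arabidopsis a pair of nuclear genes, PSAE1 and PSAE2, encodes it. Ferredoxin in turn feeds NADP reduction, thioredoxin reduction, nitrogen and sulfur assimilation and cyclic electron flow. Most proteins of the chloroplast are encoded in the nucleus, so their transcripts are read in total RNA together with those of genes that have no part in photosynthesis.

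All 37 genes matched the reference table, which holds locus names and no descriptions, and the roles given here are general background. A role is given for 28 of them. The genes lie on all 5 nuclear chromosomes, with 8, 10, 5, 7 and 7 on chromosomes 1 to 5. In the same order these chromosomes held 25%, 17.9%, 18.8%, 17.3% and 20.7% of all single-gene probes. AT5G19900 and AT5G19940 lie close together on the chromosome, with 3 protein-coding genes between them, none of which had a single-gene probe.

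Deposited intensities are linear values, and their column medians lay between 0.346 and 0.448 in psae2 and between 0.304 and 0.379 in WT. Each sample was given a floor at the 5th percentile of its positive values (0.0638 to 0.105), and lower values were raised to it before log2 and quantile normalization, which places the floor at -3.64. Levels below are these normalized log2 intensities, as mean ± SD over the 3 pair means of a genotype, and differences are psae2 minus WT. The values of 2 probes are not compared with each other, because their brightness also depends on the probe. The number of arrays limits the precision.

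The mean difference ranged from 0.35 for AT3G20150, 1.28-fold, to 1.37 for AT2G21530, 2.59-fold, among the 35 genes with a WT sample above the floor. APTX and AT2G06040 were under the floor in all WT samples, so theirs are distances to the floor. The median over the 37 genes was 0.60, 1.51-fold. Over all probes the median was 0. The difference was 1 or more for 6 genes, from 0.5 to under 1 for 16 and under 0.5 for 15. Of the 6, AT2G21530 alone had all WT samples above the floor. With the floor at the 10th percentile, APTX came to 0.88, AT2G38950 to 0.79 and AT2G06040 to 0.41. AT4G21770 came to 1.17 and AT1G07040 to 1.01. A WT sample was under the floor for 21.6% of the 37 genes, against 9.62% of single-gene probes above the floor somewhere. For a psae2 sample these shares were 2.70% and 10.1%. All 6 psae2 samples lay above all 6 WT samples for 22 of the 37 genes, a separation that 6.54% of the 3010 probes above the floor in at least 1 sample had. psae2 was the higher at 6 of 6 numbers for 36 genes and at 5 of 6 for APTX, against 6 of 6 for 18.4% of those 3010 probes. The gap between the 2 numbers of a pair had a median of 0.125 among these genes and of 0.106 over all probes above the floor. Whether such a gap is technical or biological cannot be told from the labels. For 22 genes the smallest of the 3 pair differences was larger than the largest gap within any pair, as it was for 6.64% of the 3010 probes. These counts follow in part from the size the rule asked for, and nothing is read from them.

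**Figure D1:**
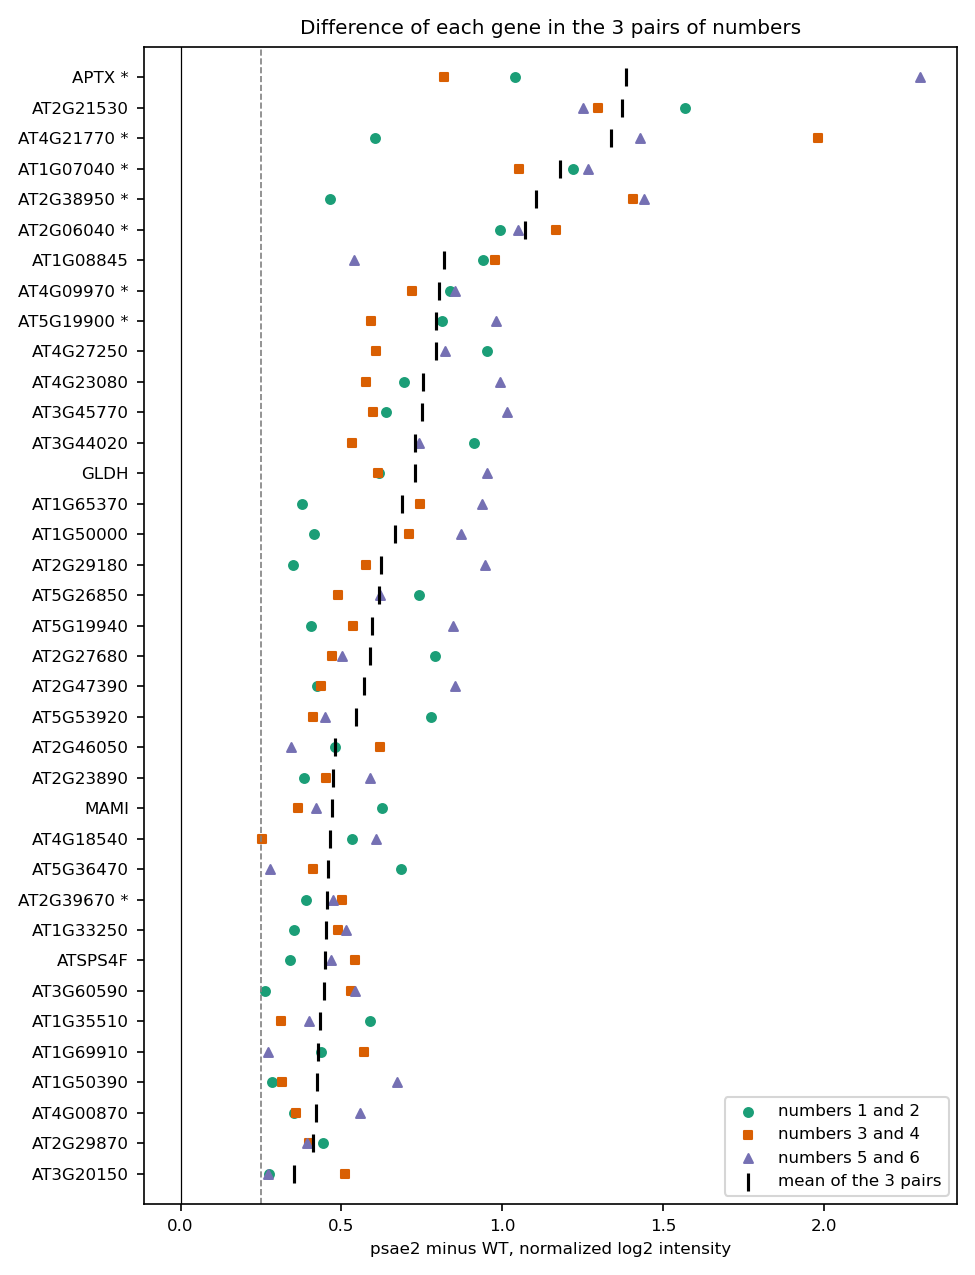
Difference between psae2 and WT (x axis, normalized log2 intensity) for each of the 37 genes (y axis, from the largest to the smallest mean), with 1 symbol for each pair of numbers and a black tick for their mean; the dashed line is the 0.25 asked of each pair and an asterisk marks 8 genes with a WT sample under the floor. The genes with the widest spread between pairs are at the top, among them APTX, from 0.82 to 2.30 above the floor, and AT4G21770, from 0.60 to 1.98.

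In limma over all 3010 probes above the floor, 11.9% were called higher in psae2 at an adjusted p under 0.05, and 34 of the 37 were among them. With the replicate number as a block, 17.5% of the probes and 37 of the 37 were called higher, and with the pairs of numbers averaged 1.23% and 7 of the 37. The rule used the same contrast of the same samples, so these counts say nothing further about the 37.

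Genes with roles in the nucleus, in signalling or in the cytoskeleton numbered 8, a grouping made, like the others, with the values in view. AT2G21530 encodes a forkhead-associated domain protein, and this domain is a fold that binds phosphorylated threonine. Its level had a lowest value of -1.14, a median of -1.06 and a highest of -0.64 in psae2, against -3.00, -2.36 and -1.71 in WT. The groups were separate, and in the deposited intensities they lay at 0.486 to 0.630 in psae2 and 0.121 to 0.257 in WT. The mean was -0.96 ± 0.23 in psae2 and -2.33 ± 0.36 in WT (SD, n = 3), a difference of 1.37, and the 3 pairs gave differences between 1.25 and 1.57.

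APTX encodes an aprataxin-like protein. Human aprataxin clears unfinished ligation ends during the repair of DNA breaks. The probe was listed at 0 in all 6 WT samples, so no fold is given, and in psae2 it had deposited intensities of 0.416, 0.0747, 0.202, 0.121, 0.518 and 0.272 at numbers 1 to 6. The value at number 2 was under the floor of its sample. On the log2 scale psae2 ran from -3.64 over a median of -2.10 to -0.89, and the largest gap between the numbers of a pair was 2.08, wider than the mean difference of 1.38 taken against the floor. Without psae2 sample 1 the gene no longer met the size in all 3 pairs.

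AT2G38950 encodes a protein with a jumonji domain, a class that includes histone demethylases. It had a lowest value of -3.21, a median of -1.85 and a highest of -1.56 in psae2, against -3.64, -3.37 and -2.48 in WT. The groups overlapped, since the 2 psae2 samples with the numbers 1 and 2 lay within the WT range and the other 4 above it. The difference was 0.46 in the first pair, 1.40 in the second and 1.44 in the third. In WT, 3 of 6 samples were under the floor, and with the floor at the 10th percentile, without psae2 sample 2 or without WT sample 1 the gene did not meet the size in all pairs.

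AT5G19900, listed in general annotation as a putative PRLI-interacting factor, had -2.64, -2.43 and -2.33 as lowest, median and highest level in psae2, against -3.64, -3.22 and -3.03 in WT. No sample of one genotype lay within the other, and the mean difference was 0.79. With a constant added instead of the floor it was 0.52, and 1 WT sample was under the floor. AT1G65370, which encodes a protein of the TRAF-like family, averaged -1.86 ± 0.30 in psae2 and -2.54 ± 0.20 in WT (SD, n = 3), with 0.38, 0.75 and 0.94 in the 3 pairs.

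The other 3 of these 8 genes had smaller differences and separate groups. AT1G69910, a member of the protein kinase family, averaged 0.27 ± 0.09 in psae2 and -0.15 ± 0.11 in WT (SD, n = 3). AT4G00870 encodes a basic helix-loop-helix transcription factor of a kind that acts in jasmonate responses. Its level was -0.70 ± 0.18 in psae2 and -1.13 ± 0.08 in WT (SD, n = 3), a difference of 0.42. AT3G20150, a kinesin motor, had the smallest mean difference of the 37, with -0.16 ± 0.16 in psae2 and -0.51 ± 0.08 in WT (SD, n = 3).

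Proteins of RNA modification and the ribosome accounted for 6 of the 37 genes. AT4G21770 encodes a protein of the pseudouridine synthase family, enzymes that isomerize uridine within RNA. Its levels at numbers 1 to 6 were 0.60, 0.50, -0.42, -0.58, -0.83 and -1.03 in psae2, against 0.05, -0.16, -1.32, -3.64, -1.37 and -3.34 in WT. In both genotypes the numbers 1 and 2 were the highest, the numbers of a pair lay close together in psae2, and numbers 3 and 4 of WT differed by 2.32. The groups overlapped, with 2 psae2 samples above every WT sample. The mean difference of 1.34 was 0.95 without WT sample 4, which was under the floor, and 1.005 without WT sample 6. It was 1.73 without WT sample 3 and 1.66 without WT sample 5. The 3 pairs gave 0.60, 1.98 and 1.43.

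AT1G08845 encodes a protein of the L18p/L5e family of ribosomal proteins. It had -2.20, -1.82 and -1.21 as lowest, median and highest level in psae2, against -3.34, -2.42 and -2.17 in WT. The lowest psae2 sample lay just within the WT range and the other 5 above it. The mean difference was 0.82, with 0.94, 0.98 and 0.54 in the 3 pairs. A further probe lists this gene together with 2 others, and it averaged 4.08 ± 0.12 in psae2 and 3.78 ± 0.11 in WT (SD, n = 3), a difference of 0.30 that ran from 0.09 to 0.41 over the pairs.

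A pair of these genes encode relatives of bacterial methyltransferases. AT1G50000, related to an enzyme that methylates the small-subunit ribosomal RNA, averaged -1.27 ± 0.18 in psae2 and -1.94 ± 0.08 in WT (SD, n = 3). The numbers of a pair differed by at most 0.11 for this gene, and its pair differences were 0.42, 0.71 and 0.87. AT5G53920, related to the methyltransferase of ribosomal protein L11, had 0.76, 1.12 and 1.34 as lowest, median and highest level in psae2, against 0.31, 0.55 and 0.70 in WT. The groups were separate and the mean difference was 0.55.

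AT2G46050, a pentatricopeptide repeat protein of a family that binds organelle RNA, averaged 0.14 ± 0.22 in psae2 and -0.34 ± 0.22 in WT (SD, n = 3), with 5 of 6 psae2 samples above the highest WT sample. AT2G39670, a radical SAM protein, was at -2.78 ± 0.09 in psae2 and -3.23 ± 0.14 in WT (SD, n = 3). The difference of 0.46 for AT2G39670 was 0.24 with the floor at the 10th percentile, 0.28 with a constant added instead of a floor, 0.30 without psae2 sample 5 and 0.61 without psae2 sample 6.

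Plastid proteins and enzymes of metabolism made up 10 of the 37 genes. The groups were separate for 7 of them, against 22 of all 37 genes and 6.54% of the 3010 probes above the floor. Nothing is read from this count. Among the 10 genes AT4G27250, which encodes a protein with an NAD(P)-binding Rossmann fold, had the largest mean difference. Its lowest, median and highest levels were 0.78, 0.84 and 1.07 in psae2, against -0.17, 0.10 and 0.31 in WT. The deposited intensities likewise lay apart, at 1.77 to 2.09 in psae2 and 0.919 to 1.14 in WT, and the pair differences were 0.95, 0.61 and 0.82.

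AT3G44020 encodes a protein annotated to the thylakoid lumen. Its lowest, median and highest levels were 0.94, 1.29 and 1.90 in psae2, against 0.45, 0.55 and 0.94 in WT. In both genotypes the numbers 1 and 2 were the highest, and the overlap came from 1 psae2 sample of numbers 3 and 4 that met the highest WT sample of numbers 1 and 2. Within the pairs the differences were 0.91, 0.53 and 0.74, and no numbers of a pair differed by more than 0.14.

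GLDH encodes the mitochondrial enzyme that makes ascorbate from L-galactono-1,4-lactone, the last step of its synthesis in plants. It averaged -1.42 ± 0.37 in psae2 and -2.15 ± 0.21 in WT (SD, n = 3), and its deposited intensity was 0.352 to 0.480 in psae2, against 0.193 to 0.233 in WT. The groups were separate with a mean difference of 0.73, and with pair differences of 0.62, 0.61 and 0.95. AT3G45770 encodes an enoyl thioester reductase of mitochondrial fatty acid synthesis. It averaged -0.43 ± 0.06 in psae2 and -1.18 ± 0.29 in WT (SD, n = 3), a difference of 0.75.

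Sucrose-phosphate synthase makes the precursor of sucrose in the cytosol, and ATSPS4F is one of its genes. Its lowest, median and highest levels were 0.73, 0.80 and 1.09 in psae2, against 0.30, 0.41 and 0.50 in WT. The groups were separate, with differences of 0.34, 0.54 and 0.47 in the pairs. AT1G50390, a member of the pfkB family of carbohydrate kinases, averaged 0.26 ± 0.18 in psae2 and -0.17 ± 0.13 in WT (SD, n = 3), and its difference was 0.29, 0.32 and 0.67 in the pairs.

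Plastid lipid-associated proteins of the fibrillin family bind to plastoglobules and thylakoids, and AT5G19940 encodes one of them. It averaged -1.97 ± 0.08 in psae2 and -2.57 ± 0.18 in WT (SD, n = 3). AT2G47390, a glutamyl endopeptidase of the chloroplast stroma, was at -1.32 ± 0.41 in psae2 and -1.89 ± 0.28 in WT (SD, n = 3). Its groups overlapped, with 4 of 6 psae2 samples above the highest WT sample, and both genotypes were higher at numbers 3 and 4 than at numbers 1 and 2, by 0.55 in psae2 and 0.54 in WT.

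AT2G27680, an aldo/keto reductase, averaged -0.76 ± 0.26 in psae2 and -1.35 ± 0.42 in WT (SD, n = 3), and 2 of 6 psae2 samples lay above the WT range. AT2G23890, a nucleotidase of the haloacid dehalogenase superfamily, averaged -1.60 ± 0.03 in psae2 and -2.08 ± 0.11 in WT (SD, n = 3). The 6 psae2 samples of AT2G23890 were close together, between -1.67 and -1.50, whereas the WT samples ran from -2.58 to -1.73.

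Genes of membranes and the cell wall were 4 in number, with differences between 0.41 and 0.47, and the groups of 1 of them, AT2G29870, were separate. AT2G29870, an aquaporin-like gene, had the most even difference of the 4, with 0.44, 0.40 and 0.39 in the pairs, and averaged -0.18 ± 0.16 in psae2 and -0.59 ± 0.15 in WT (SD, n = 3). MAMI, listed in general annotation as a membrane-associated mannitol-induced gene, averaged -0.66 ± 0.31 in psae2 and -1.13 ± 0.24 in WT (SD, n = 3).

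AT1G33250, which encodes a fringe-like glycosyltransferase, averaged 0.10 ± 0.26 in psae2 and -0.35 ± 0.18 in WT (SD, n = 3). AT1G35510, an O-fucosyltransferase family gene, averaged -0.90 ± 0.24 in psae2 and -1.33 ± 0.30 in WT (SD, n = 3), a difference of 0.43. A further probe that lists AT1G35510 together with 2 other genes, and that the rule did not use, averaged 0.50 ± 0.12 in psae2 and 0.06 ± 0.16 in WT (SD, n = 3). Its difference was 0.43 as well, with 0.49, 0.33 and 0.48 in the pairs.

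No role is given for 9 of the genes. AT1G07040 had -2.32, -1.81 and -1.48 as lowest, median and highest level in psae2, against -3.64, -2.92 and -2.60 in WT. The groups were separate, and the difference was nearly the same in each pair (1.22, 1.05 and 1.27). Its WT sample 2 was under the floor, and the numbers of a pair differed by up to 1.04 for this gene. With a constant added instead of the floor, its mean difference of 1.18 was 0.80.

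All 6 WT values of AT2G06040 lay under the floor, 2 of them at 0, and all 6 psae2 values above it. In psae2 its lowest, median and highest levels were -2.97, -2.59 and -1.98. The psae2 mean lay 1.07 above the floor, or 2.10-fold, and the lowest sample 0.67 above it. These distances move with the floor, because the mean difference of 1.07 was 0.41 with the floor at the 10th percentile. AT4G09970 had -2.92, -2.65 and -2.32 in psae2 as lowest, median and highest level, against -3.64, -3.52 and -3.14 in WT, where 3 of 6 samples were under the floor. These groups were separate too, but the mean difference of 0.80 was 0.54 with an added constant and 0.33 with the floor at the 10th percentile, where the gene did not meet the size.

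The other 6 genes without a role were above the floor in all samples. AT4G23080 averaged 0.20 ± 0.15 in psae2 and -0.56 ± 0.07 in WT (SD, n = 3), and AT5G26850 averaged 0.64 ± 0.06 in psae2 and 0.03 ± 0.15 in WT (SD, n = 3). Both had separate groups, with pair differences of 0.69, 0.58 and 0.99 for AT4G23080 and 0.74, 0.49 and 0.62 for AT5G26850. AT2G29180 averaged -2.07 ± 0.37 in psae2 and -2.69 ± 0.19 in WT (SD, n = 3), with 0.35, 0.58 and 0.95 in the pairs. AT4G18540 was separate between the groups (-1.62 ± 0.25 in psae2 and -2.09 ± 0.17 in WT; SD, n = 3), and AT5G36470, with a difference of 0.46, was not.

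AT3G60590 averaged -2.20 ± 0.35 in psae2 and -2.64 ± 0.34 in WT (SD, n = 3). A further probe that lists AT3G60590 with 2 other genes did not go the same way. It averaged -2.96 ± 0.23 in psae2 and -2.82 ± 0.07 in WT (SD, n = 3), and its difference was -0.19, -0.27 and 0.04 in the pairs. The 3 probes of several genes that list AT1G35510, AT1G08845 or AT3G60590 were the only further probes listing any of the 37, and which of their genes they read cannot be told apart.

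**Figure D2:**
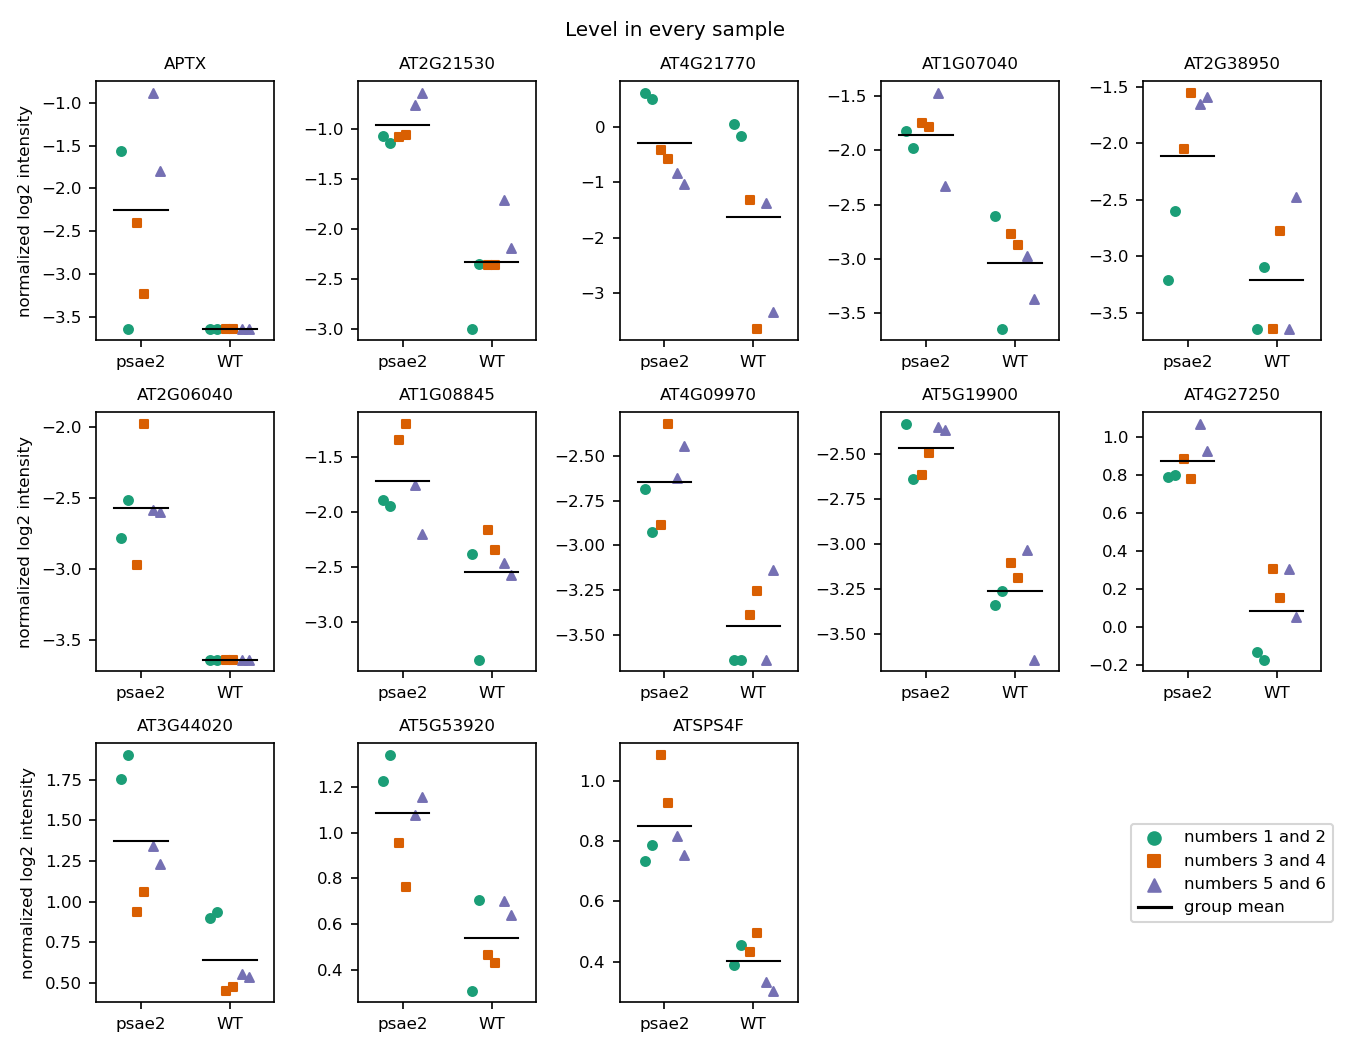
Normalized log2 intensity (y axis) in each of the 6 psae2 and 6 WT samples for the 10 genes with the largest mean difference and 3 more chosen by mean level, with a symbol for each pair of numbers and a line at the group mean. APTX and AT2G06040 lie at the floor of -3.64 in all 6 WT samples, and in AT4G21770 and AT3G44020 the numbers 1 and 2 are the highest in both genotypes.

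The size of 0.25 falls within a continuous range of values. Just inside it were AT4G18540 (smallest pair difference 0.252), AT3G60590 (0.263), AT1G69910 (0.271), AT3G20150 (0.272) and AT5G36470 (0.279). Just outside were AT1G79220 (0.245), AT3G09050 (0.241), AT1G55440 (0.239), AT3G61680 (0.239) and AT2G01400 (0.239). AT3G09050, which was left out, had a larger mean difference (0.49) than any of the 5 just inside, so the order follows the least favourable pair and not the mean.

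The difference was not the same in the 3 pairs. It was largest in numbers 5 and 6 for 19 of the 37 genes, in numbers 1 and 2 for 10 and in numbers 3 and 4 for 8. Over the 3010 probes above the floor the largest signed difference fell in numbers 5 and 6 for 42.5%, in 1 and 2 for 29.9% and in 3 and 4 for 27.6%. Medians over the 37 genes were 0.59, 0.54 and 0.67 in the 3 pairs. In 13 genes the largest pair difference was over 2 times the smallest, among them AT1G65370, AT1G50000, AT2G29180 and AT5G19940, whose differences were lowest in numbers 1 and 2 and highest in 5 and 6.

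Changes between the pairs of numbers within a genotype were not used by the rule. At numbers 3 and 4, 17 of the 37 genes were higher than at numbers 1 and 2 in both genotypes and 11 were lower in both, against 35.3% and 31.4% of all probes above the floor. For numbers 5 and 6 against 1 and 2 the counts were 13 and 9, against 35.9% and 30.4%. AT4G21770 shifted most, and numbers 3 and 4 minus 1 and 2 gave -1.05 in psae2 and -2.42 in WT, while numbers 5 and 6 minus 1 and 2 gave -1.48 in psae2 and -2.30 in WT.

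AT1G08845 was higher at numbers 3 and 4 than at 1 and 2, by 0.64 in psae2 and 0.60 in WT. AT2G27680 was higher at numbers 5 and 6 than at 1 and 2, by 0.53 in psae2 and 0.82 in WT. For numbers 5 and 6 minus 1 and 2, AT2G38950 gave 1.28 in psae2 and 0.31 in WT, and APTX gave 1.26 in psae2 with WT at the floor throughout. What a number stands for is not given in the labels, and its part in these shifts was not tested.

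**Figure D3:**
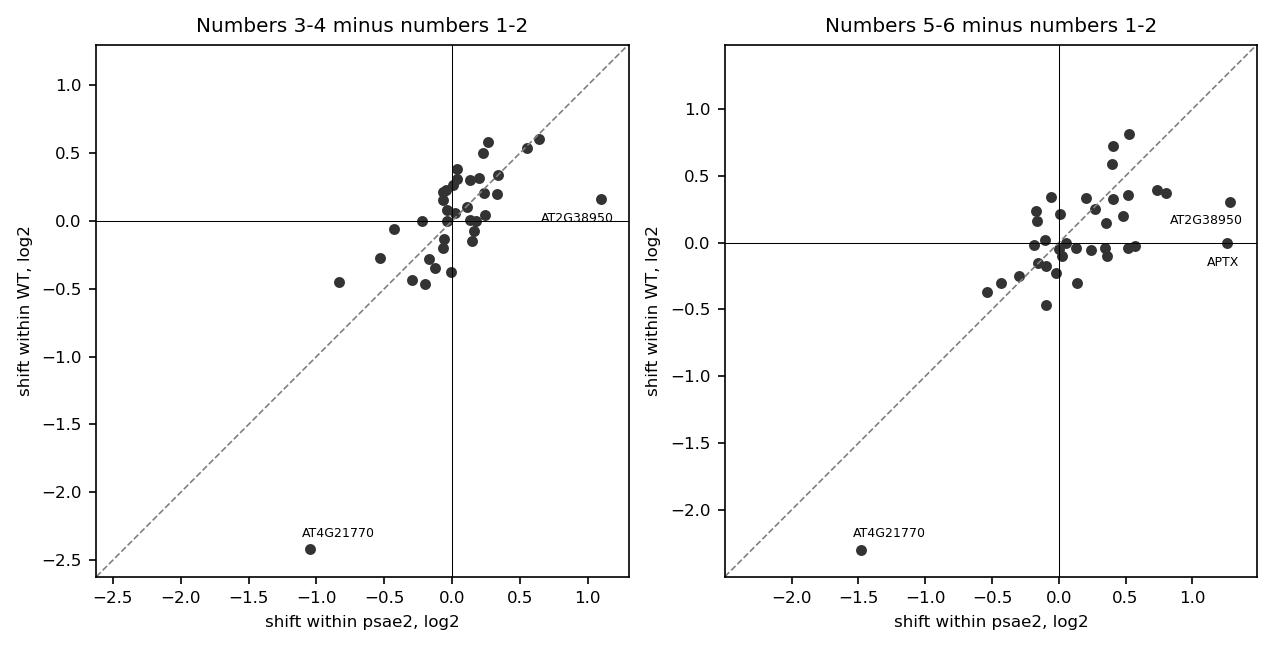
Shift of each of the 37 genes between pairs of numbers within psae2 (x axis) and within WT (y axis), in normalized log2 intensity, for numbers 3-4 minus 1-2 (left) and 5-6 minus 1-2 (right); genes that moved by 1 or more in either genotype are named and the dashed line marks equal shifts. AT4G21770 stands far from the others at -1.05 and -2.42 in the left panel, and at -1.48 and -2.30 in the right one.

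The deposited values were on the whole higher in psae2, and the choice of scaling decides how many probes meet the size. With the values as deposited the median difference of all probes above the floor was 0.17 and that of the 37 genes 0.78. When arrays were centred on their medians these came to -0.03 and 0.58. Centring moves every probe alike, so the distance of 0.61 between the medians is the same in both by construction. Single-gene probes outside the 6 names that met the size numbered 114 as deposited, which included all 37, and 39 with centred arrays, which included 32. The 5 genes that dropped out on centring were AT1G33250, AT1G50390, AT1G69910, AT3G20150 and ATSPS4F, none of which changed direction. Asking for 0.25 at each of the 6 numbers instead of in the 3 pairs kept 21 of the 37.

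**Figure D4:**
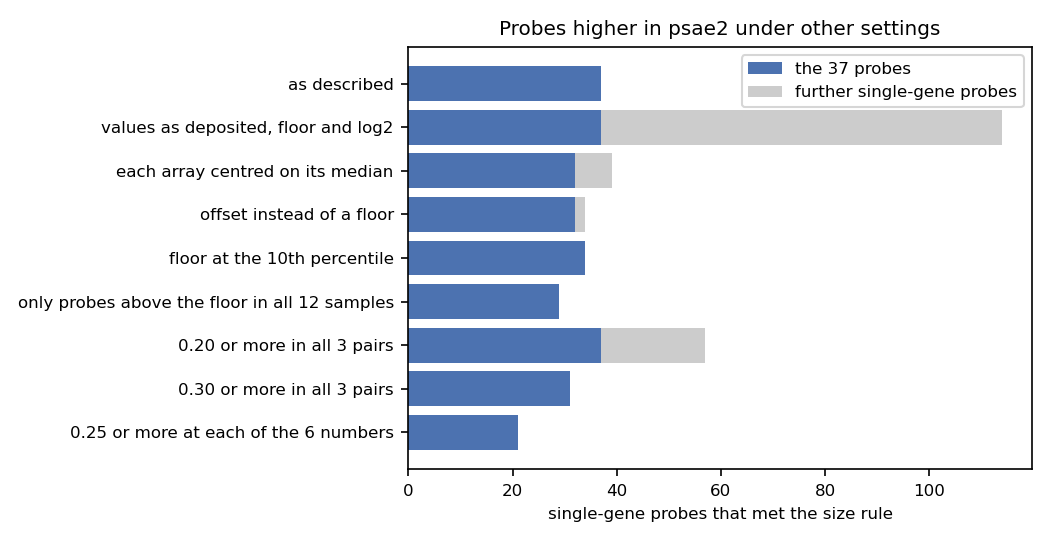
Number of single-gene probes (x axis) that were higher in psae2 by the stated size under each setting (y axis), split into those among the 37 (blue) and further probes (grey). The count ran from 21, with 0.25 asked at each number, to 114 with the values as deposited.

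Genes next to the mutated subunit in function could hardly be compared with the 37. Of 77 loci in 6 lists of photosystem I subunits, its electron acceptors and thioredoxins, enzymes that remove reactive oxygen, plastid chaperones and proteases, and markers of green tissue and of roots, flowers and seeds, 4 had a single-gene probe, and 0 of the 4 met the size in either direction after quantile normalization, while NTRC met it with the values as deposited. The 6 names left out at the start, of which 4 probes met the size, were not among these 4 genes. The count of 0 therefore does not cover them or genes outside the lists. The photosystem I subunit gene PSAN averaged 2.12 ± 0.25 in psae2 and 2.11 ± 0.24 in WT (SD, n = 3). NTRC, a plastid thioredoxin reductase that uses NADPH, averaged -1.25 ± 0.20 in psae2 and -1.47 ± 0.03 in WT (SD, n = 3). Its difference was 0.47 in numbers 5 and 6 against 0.06 and 0.13 in the other pairs. The catalytic subunit of ferredoxin-thioredoxin reductase, AT2G04700, had differences of -0.18, 0.69 and 0.07. The peroxiredoxin gene AT3G52960 had 0.26, -0.85 and -1.97, and 2 of its 12 values were under the floor. None of the tissue markers had a probe of its own, so the labels were not set against a tissue. In bulk RNA fewer cells of a type and less RNA per cell cannot be told apart.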

How the data were processed

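The authors deposited one table of linear intensity values; per the labels it holds 6 psae2 and 6 WT samples of total RNA. The array type, background correction and scaling were not given in the sources used here. Column sums lay between 2972 and 3610, between 11.9% and 13.7% of the values of a sample were 0, and all columns belonged to a sample. Low values were raised to a floor, the 5th percentile of a sample's positive values, then log2-transformed and quantile-normalized over all 3439 probes. Probe names came from the platform annotation, symbols from a reference table (assembly TAIR10.1), used for names and gene order only.

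The labels give replicate numbers, and deviations of same-numbered samples from their group means correlated at 0.34 to 0.53 across the genotypes. Samples of different numbers were not compared across the genotypes. These values therefore cannot tell a pairing by single number from a likeness of whole pairs of numbers. limma 3.58.1 (R 4.3.3, lmFit, eBayes, Benjamini-Hochberg) was run on the 3010 probes above the floor in at least 1 sample, for background counts. It was also run on simulated data with independent samples. Those data lack the likeness between the numbers of a pair, so that run cannot show how the fit handles it. P-values over samples then measure only the spread between these samples, which may be technical.

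Genes shown in full were the 10 with the largest mean difference, those under the floor throughout a group and the 3 with the highest mean level. The last choice ranks probes by brightness. It served display only and is not read as a difference in expression between genes. Members and lists were chosen with earlier results of these data known; role groups were made with the values in view. Sequences were not used here.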

Additional observations from a re-analysis of the deposited data

Results flagged for a closer look

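In each genotype the 6 samples of each of the 37 genes were checked for a single sample set apart from the other 5 by more than the limit of Dixon's ratio for 6 samples. Of 72 sets, 4 held such a sample, and chance alone gives about 1 in 20 for independent values with a normal spread. The numbers of a pair resembled each other and the genes were chosen by these values, so that rate is only a rough guide. For 2 sets without spread, the WT values of APTX and AT2G06040, no ratio could be formed.

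AT2G27680 was at -1.34 in psae2 sample 2 and at -0.78 to -0.46 in the other psae2 samples. AT1G08845 was at -3.34 in WT sample 2, against -2.57 to -2.17 in the other WT samples. AT3G45770 was at -1.80 in WT sample 6, with the others at -1.23 to -0.91. In AT1G65370, WT sample 3 had -3.01 and the other 5 had -2.55 to -2.32. The cause was not tested for any of these.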

How the results depend on the processing

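The count of 37 became 114 with the values as deposited, 57 with 0.20 asked of each pair and 21 with 0.25 at each of the 6 numbers; the last 2 follow from what was asked, and the cause of the first was not tested beyond the common shift of the arrays. It was 39 with centred arrays, 34 with an offset, 34 with the higher floor, 29 with only probes above the floor in all 12 samples, and 31 with 0.30 asked. With 1 sample left out it was 35 to 45, and 21 of the 37 met the size in all 12 of these settings. The median difference of 0.60 was 0.78 as deposited, 0.49 with an offset, and 0.57 to 0.66 with 1 sample left out. Of 592 recomputed differences of single genes (16 settings each), 0 changed direction and 49 moved by more than the SD between pairs; the choice of genes for a difference in this direction makes that close to given. Paired by number (replicate block), the fit over all probes called 1011 instead of 671; with numbers averaged it called 79, and 559 to 686 with 1 sample left out. Dim signal limits the 8 genes with WT samples under the floor.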
